A study of Mus musculus with 12 samples.

Results

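The response of mural granulosa cells to equine chorionic gonadotropin (eCG, labelled PMSG in the titles) was read from the 6 mural arrays among the 12 arrays of the series, 3 labelled as stimulated and 3 as unprimed. Arrays were assigned to groups by their titles and not by any measured value. The donors were B6SJLF1 mice aged 22 days, and each array held RNA of mural cells from a pool of 5 animals. The stimulated animals had received 5 IU of eCG by injection into the peritoneum 44 hours earlier, and the unprimed animals had received no eCG. The labels mention no vehicle injection for them. Clumps of mural cells were chosen by eye for a healthy colour. The labels call the pools biological replicates, so the spread below is that between pools, with the handling of each pool included.

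Mural granulosa cells line the inner wall of the ovarian follicle, while cumulus cells surround the oocyte. Both carry receptors for follicle-stimulating hormone, which act through cyclic AMP, and in immature mice eCG acts in place of that hormone and drives follicles to the preovulatory stage. Over this period mural cells are known to gain steroid-producing capacity and to become able to respond to luteinizing hormone, the signal for ovulation. In bulk RNA, a transcript can rise because each cell holds more of it or because more of the collected cells express it, and these cannot be told apart.

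Values are deposited log2 values made with RMA, which equalizes the distributions of the arrays, so a difference of 1 stands for 2-fold and a shift shared by most transcripts is not visible. A row of the table is a probe set named by an Ensembl mouse transcript. Of 41115 such rows, 25917 were tested because their value exceeded the 40th percentile of the array on at least 3 of the 12 arrays. That percentile, called the filter level here, lay between 6.69 and 6.73 on the mural arrays. Transcripts with the same values on every array were counted once, which left 16809 distinct transcripts tested. The files and the gene table at hand do not pair these identifiers with gene names, so 2 transcripts that rose and 2 that fell are given by identifier. For the same reason the mural label was not checked against marker genes, no count of oocyte, theca, vessel or blood cell markers was made, and a pathway cannot be named for any transcript except those of the manufacturer's named controls. The mural arrays had medians of 7.33 to 7.38. Precision is limited by the small number of arrays.

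After eCG, 1086 distinct transcripts were higher in mural cells, which is 6.46% of those tested, and 1403 were lower, which is 8.35% (limma with Benjamini-Hochberg adjustment, adjusted p under 0.05). The remaining 14320 were not called. Most called changes were moderate. The median log2 change was 0.67 among transcripts that rose and -0.60 among those that fell, beside -0.02 over all transcripts tested. By at least 2-fold, 287 rose and 252 fell, an order that turned without stimulated replicate 3 (276 and 283) and with the 3′ minus 5′ difference of control probe sets as a covariate (219 and 227). By at least 4-fold, 44 rose and 33 fell, and by at least 8-fold, 9 rose and 2 fell. In 1058 of the 1086 rises every stimulated array lay above every unprimed array, and in 1381 of the 1403 falls every stimulated array lay below. Over all transcripts tested, such a gap between the groups was seen upward in 12.6% and downward in 17.0%. The counts depended on single arrays: without stimulated replicate 1 there were 697 rises and 912 falls, and without unprimed replicate 1 there were 932 falls.

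**Figure D1:**
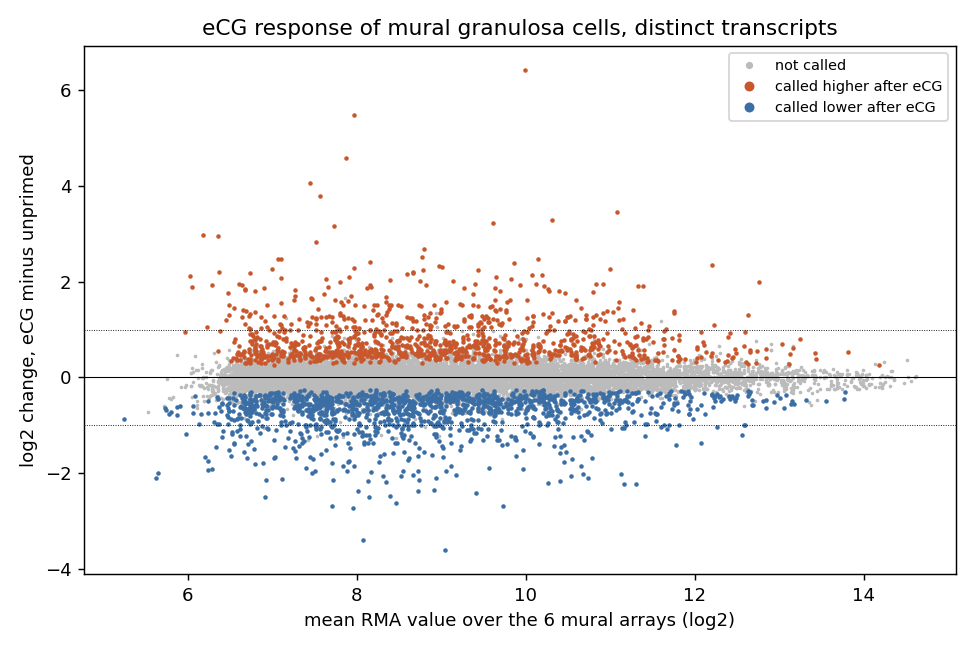
Log2 change after eCG against the mean log2 value over the 6 mural arrays, with a point for each of 16809 distinct transcripts and dotted lines at 2-fold. The 1086 called rises (orange) reach 6.41 and the 1403 called falls (blue) reach -3.60.

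A smaller set of transcripts crossed the filter level. For 90 rises, 8.29% of the 1086, all unprimed arrays lay at or below it and all stimulated arrays above it. Their stimulated group means had a median of 7.23, and their median log2 change was 0.93. For 88 falls, 6.27% of the 1403, the order was the opposite. Their unprimed group means had a median of 7.14, and their median log2 change was -0.85. The highest stimulated group mean among the 90 was 10.71. The same level decided which transcripts were tested. Some of the 90 could therefore have entered through their stimulated mural arrays alone, and some of the 88 through their unprimed ones. With no filter on low values the counts were 90 and 86, and with the filter at the 60th percentile 5 and 17. The share of all tested transcripts that crossed the level is not given, so no conclusion is drawn from these counts.

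The largest rise was that of ENSMUST00000003659. Its unprimed values were 6.36, 7.30 and 6.69 on replicates 1 to 3, and its stimulated values were 13.28, 12.83 and 13.46. The groups lay far apart, and the unprimed values were close to the filter level while the stimulated values were near the top of the scale. The log2 change was 6.41 ± 0.28 (SE, n = 3 per group; limma adjusted p = 1.5e-07). Since the unprimed level is near the filter level, the size of this change is not exact, and no fold is given.

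ENSMUST00000024916 showed the second largest difference in reading. Unprimed arrays read 4.67, 5.96 and 5.04, and stimulated arrays read 11.07, 10.23 and 10.83. All unprimed values were below the filter level, and those of replicates 1 and 3 were within reach of the trpn controls, which have no mouse target and averaged 4.42 to 4.51 on the same arrays. The group means of the readings differed by 5.48 ± 0.32 on the log2 scale (SE; limma adjusted p = 9.1e-07). With unprimed readings not clear of background, this is not an exact size of the change, and no fold is given. The transcript passed the filter only through its 3 stimulated mural arrays, since all other arrays lay below the filter level. With no filter on low values the difference was 5.48 ± 0.33 (SE; limma adjusted p = 3.4e-06). In both transcripts unprimed replicate 2 had the highest value of the unprimed arrays and stimulated replicate 2 the lowest of the stimulated ones. The next 8 rises in rank, which had no overlap between the groups, changed by 4.57 down to 2.96. In 4 of these 8 all unprimed values were below the filter level, and the narrowest gap between the groups was 1.59.

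The largest fall was that of ENSMUST00000026084, whose row was identical to that of 1 other transcript. Unprimed arrays read 11.27, 10.74 and 10.49, and stimulated arrays read 5.80, 8.53 and 7.39. The groups did not overlap, but the stimulated values spread over more than 2 units, with replicate 1 lowest and replicate 2 highest. The log2 change was -3.60 ± 0.50 (SE, n = 3 per group; limma adjusted p = 4.2e-04). The value of stimulated replicate 1 lay below the filter level, so the size of the fall is not exact. The change was -2.87 without stimulated replicate 1 and -4.24 without stimulated replicate 2.

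ENSMUST00000025390 fell from unprimed values of 9.86, 9.47 and 9.97 to stimulated values of 5.56, 7.33 and 6.23. Stimulated replicate 1 was again lowest and replicate 2 again highest, and the values of replicates 1 and 3 lay below the filter level, so the size of the fall is not exact. Its log2 change was -3.39 ± 0.33 (SE; limma adjusted p = 2.2e-05). The next 8 falls in rank changed by -2.72 to -2.41, from unprimed values of 7.89 to 11.33 to stimulated values of 5.32 to 9.49. These falls were closer to each other in size than the leading rises were.

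**Figure D2:**
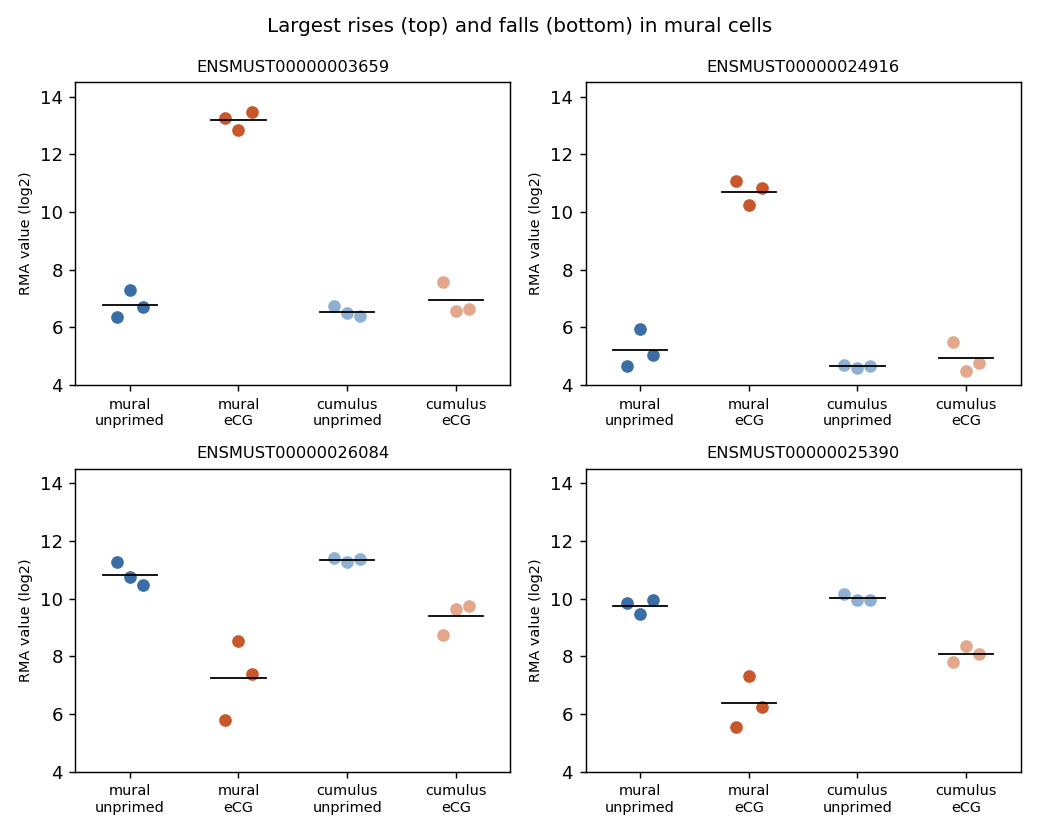
Log2 value on each array (points) with the group mean (line) for the 2 largest rises in mural cells (top) and the 2 largest falls (bottom), 3 arrays per group, cumulus arrays in paler colours. The rises from means of 6.78 and 5.23 to 13.19 and 10.71 were called in mural and not in cumulus cells. Both falls were called in cumulus cells too, with smaller estimates, but the difference between the cell types did not pass in the main fit.

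The same 4 transcripts were read in cumulus cells to ask whether the changes differed between the cell types. The interaction is the cumulus log2 change minus the mural log2 change, tested in the same fit, and 3.26% of all distinct transcripts passed that test. For ENSMUST00000003659 the cumulus change was 0.39 ± 0.28 and the interaction -6.02 ± 0.40 (SE; limma adjusted p = 2.1e-05). For ENSMUST00000024916 the cumulus change was 0.27 ± 0.32 and the interaction -5.21 ± 0.45 (limma adjusted p = 9.5e-05). Both rises were larger in mural cells by the test of the difference. All 4 transcripts were picked for a large mural change, which is part of the interaction. The direction and size of their interactions follow in part from that choice and are given as a description. The cumulus readings of ENSMUST00000024916 were 4.49 to 5.51, below the filter level on all 6 arrays as on the unprimed mural arrays, and those of ENSMUST00000003659 were near that level, at up to 7.59, so the sizes of these cumulus changes and interactions are not exact. Among the falls, ENSMUST00000026084 changed by -1.98 ± 0.50 in cumulus cells and ENSMUST00000025390 by -1.94 ± 0.33, both called, and their interactions of 1.62 ± 0.71 and 1.46 ± 0.46 did not pass (limma adjusted p = 0.238 and 0.109). With array weights both interactions passed, at 2.25 (adjusted p = 0.0413) and 1.71 (adjusted p = 0.0189), and without stimulated mural replicate 2 that of ENSMUST00000025390 was 1.94 (adjusted p = 0.00545).

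Over the 287 transcripts that rose at least 2-fold in mural cells, 159 were also called higher in cumulus cells and 4 were called lower, while 10.7% of all transcripts tested were called higher there. These 159 made up 55.4% of the mural list and 8.82% of the 1802 transcripts called higher in cumulus cells. The median log2 change of the 287 was 1.34 in mural and 0.64 in cumulus cells. Of the 252 that fell at least 2-fold, 144 were called lower in cumulus cells too and 8 higher, beside 9.10% of all transcripts tested called lower there, and the medians were -1.31 and -0.70. The mural and cumulus comparisons share no arrays, but the labels do not say whether they share pools. Of the 24 control probe sets for bacterial polyA RNA, a kind of spike-in, 22 were called higher after eCG in cumulus cells (median log2 difference 0.92) and 0 in mural cells. Of 18 probe sets for controls of the hybridization step, 11 were called in cumulus cells (median log2 difference 0.42) and 0 in mural cells. The mean of the 24 polyA controls was used as a covariate, a choice made after the data were seen. In that fit 1 of 260 mural rises and 6 of 241 falls of at least 2-fold were also called in cumulus cells. Because these controls themselves differed between the cumulus groups, the covariate takes up much of the cumulus difference between eCG and unprimed arrays. This fit therefore cannot decide how many changes are shared. Interactions given below with this covariate have the same limit.

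The interaction passed in 104 of the 287 rises, with the mural change the larger in size in all 104, and in 71 of the 252 falls, with the mural change the larger in 70. The transcripts had been picked for a large mural change, so this direction follows in part from the choice and is given as a description. Without stimulated mural replicate 1 the count among falls was 42, and without unprimed mural replicate 1 it was 46. With the replicate number as a block the interaction passed in 73 rises and 34 falls. With the bacterial controls as a covariate the interaction passed in 51 rises and 11 falls, and with array weights in 171 and 165. Of all 1086 rises 189 passed the interaction (17.4%), and of all 1403 falls 177 did (12.6%), beside 3.26% of all transcripts tested. The mural change is part of the interaction, so these higher shares also follow in part from choosing transcripts by it.

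Gene names are at hand for a few control probe sets of the array. Gapdh, an enzyme of glycolysis, has a 3′, a middle and a 5′ probe set, which read the same transcript and are no replicates of each other. The middle one read 13.53, 13.62 and 13.60 on the unprimed mural arrays and 14.02, 13.83 and 13.94 on the stimulated ones, with no overlap. Its log2 change was 0.35 ± 0.09 (SE, n = 3 per group; limma adjusted p = 0.023, over 25981 rows with the controls included). The 3′ one changed by 0.25 ± 0.08 (adjusted p = 0.0467 by limma), from 14.10, 14.17 and 14.11 to 14.42, 14.36 and 14.36. The 5′ one read 12.08, 12.33 and 11.77, then 12.94, 12.31 and 12.77, a log2 change of 0.61 ± 0.17 (adjusted p = 0.0311 by limma). In this last probe set the groups overlapped, with unprimed replicate 2 slightly above stimulated replicate 2. All 3 calls were lost when the 6 mural arrays were fitted alone (limma adjusted p = 0.123 for the 3′, 0.0586 for the middle and 0.0893 for the 5′ probe set). Over the fits that each left out a mural array, the adjusted p of the 3′ probe set was 0.0556 to 0.157, never past the threshold. The middle call was lost without either stimulated replicate 1 (0.102), stimulated replicate 3 (0.0632) or unprimed replicate 1 (0.0867). The 5′ call was lost without either stimulated replicate 1 (0.137), stimulated replicate 3 (0.0988), unprimed replicate 1 (0.0791) or unprimed replicate 3 (0.114). The interactions of -0.08, -0.12 and -0.11 did not pass (adjusted p = 0.744, 0.656 and 0.857), and the change in the 3′ probe set took place near the highest values of these arrays, 14.61 to 14.71.

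Pyruvate carboxylase, which makes oxaloacetate from pyruvate, has 4 control probe sets. The 3′ one read 8.14, 8.23 and 8.23 on unprimed and 8.69, 8.45 and 8.59 on stimulated mural arrays, with no overlap. The log2 difference of 0.38 ± 0.12 missed the threshold narrowly (limma adjusted p = 0.0501), and alternatives fell on either side of it. The adjusted p by limma was 0.0358 to 0.0386 under the 3 renormalizations tried and 0.00137 with array weights, but 0.14 with the replicate block, 0.0977 with the bacterial controls as a covariate and 0.0503 to 0.183 when single mural arrays were left out. In cumulus cells the same probe set fell by 0.38 ± 0.12 (limma adjusted p = 0.0395), and the interaction of -0.76 ± 0.17 passed (adjusted p = 0.0285). That interaction no longer passed without stimulated mural replicate 1 (-0.70, adjusted p = 0.0803), without unprimed mural replicate 1 (-0.73, adjusted p = 0.0709) or with the bacterial controls as a covariate (-1.02, adjusted p = 0.0899). The other probe sets of this enzyme read 5.84 to 7.37 on the mural arrays, with log2 differences of 0.02, 0.03 and 0.07.

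For the other named controls no change was called in mural cells. Beta-actin, a cytoskeletal protein, had log2 differences of 0.03, 0.05 and 0.06 over its 3 probe sets, and the transferrin receptor, which takes up iron, had 0.11, 0.03 and -0.01, at values of 4.27 to 6.37 that lie under the filter level. The 18S ribosomal RNA had -0.39 ± 0.13 at its 3′ probe set (limma adjusted p = 0.066) and -0.05 and -0.10 at the others. A p that misses the threshold does not show that these levels were equal.

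**Figure D3:**
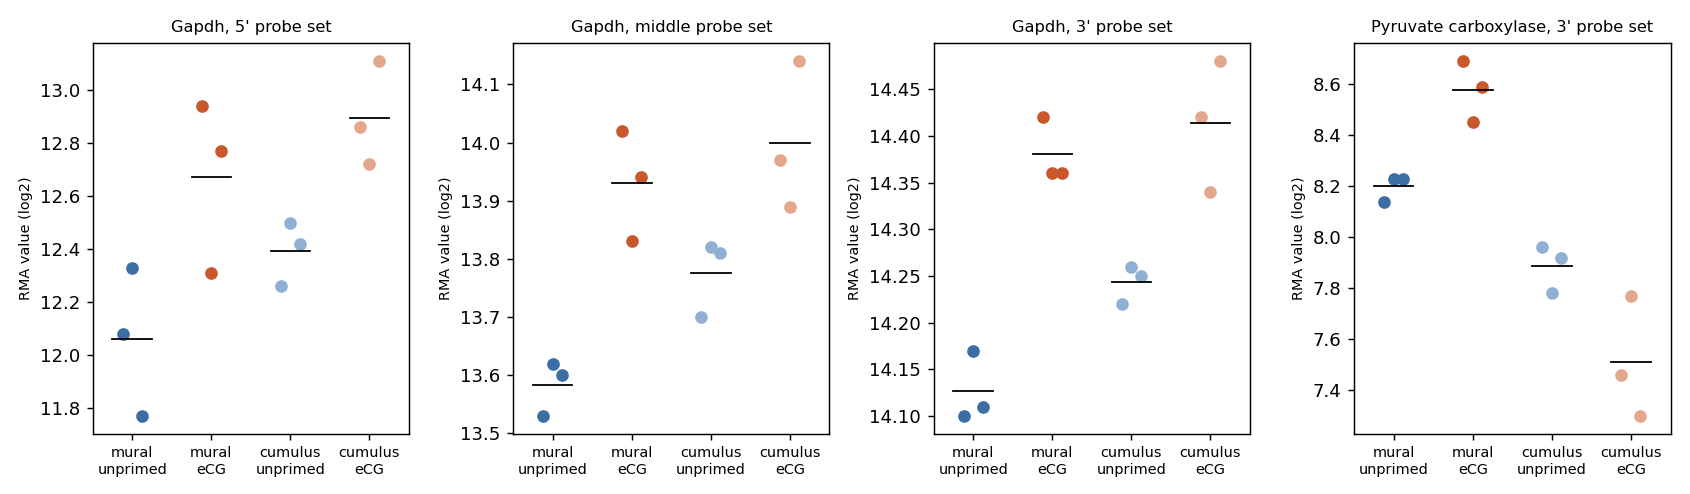
Log2 value on each array (points) with the group mean (line) for the 3 Gapdh probe sets and the 3′ probe set of pyruvate carboxylase, 3 arrays per group, each panel on its own axis. Mural values rise with eCG in the middle and 3′ Gapdh probe sets without overlap, and the pyruvate carboxylase values lie higher after eCG in mural and lower in cumulus cells.

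The unprimed mural arrays were not alike. Replicates 2 and 3 lay farthest apart, with 404 distinct transcripts differing by at least 2-fold between them (2.40% of those tested) and a correlation of 0.972 across transcripts. Replicate 1 differed from replicate 2 in 92 and from replicate 3 in 94 transcripts. The stimulated arrays differed from each other in 52 to 99. Between unprimed and stimulated arrays the numbers ran from 420 to 1043, so unprimed replicates 2 and 3 differed in nearly as many transcripts as unprimed replicate 2 and stimulated replicate 3 did.

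**Figure D4:**
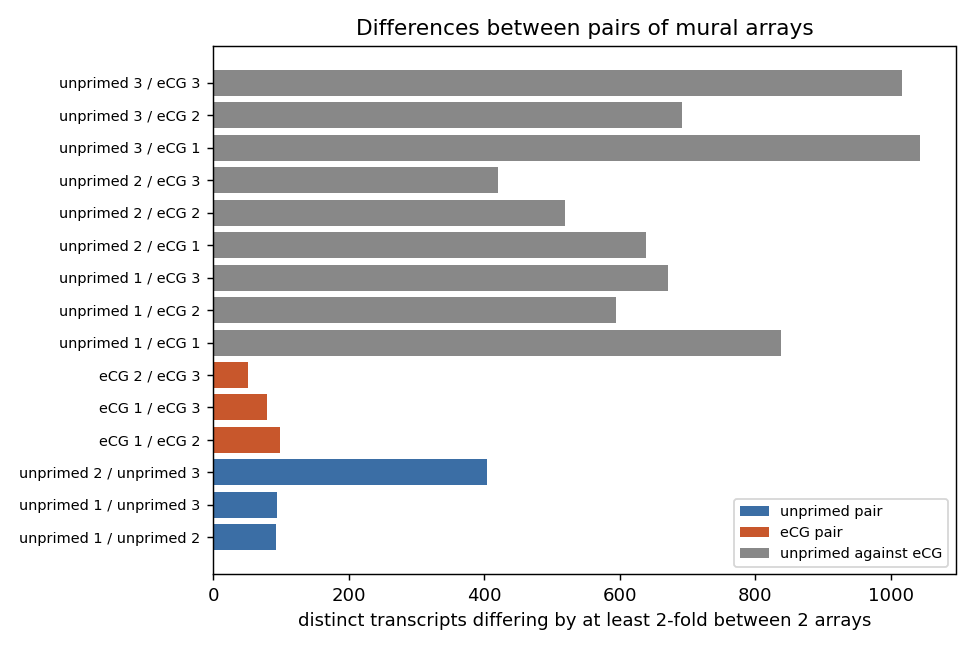
Number of distinct transcripts, of 16809, that differ by at least 2-fold between each pair of mural arrays. The pair of unprimed replicates 2 and 3 stands at 404, the other pairs within a group at 52 to 99, and pairs across groups at 420 to 1043.

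Of the 404, 285 were higher in replicate 2 and 119 were lower. These transcripts were set against arrays that did not choose them, with unprimed replicate 1 as the base. Where replicate 2 exceeded replicate 3, the stimulated mean lay above replicate 1 in 65.3%, beside 44.8% of all transcripts tested. It lay below replicate 1 in 78.2% of those lower in replicate 2, beside 55.2% of all. By at least 2-fold the stimulated mean was above replicate 1 in 47 and below in 7 of the 285, and above in 5 and below in 38 of the 119, beside 322 above and 314 below over all 16809 tested. Against unprimed cumulus cells the pattern was not the same. The cumulus mean lay below replicate 1 in 204 of the 285 and in 84 of the 119, beside 7658 of all 16809.

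The place of each mural array along the response was then measured with transcripts called without that array. A place of 0 is the mean of the other unprimed arrays and 1 the mean of the other stimulated arrays. Unprimed replicate 2 lay at 0.32 over the 1290 transcripts that rose and at 0.26 over the 1394 that fell. Unprimed replicate 1 lay at -0.06 and -0.02, and replicate 3 at -0.07 and 0.05. Replicate 2 had the highest unprimed value in 968 of the 1290 rises (75%), against 42.3% of all transcripts, and the lowest in 861 of the 1394 falls (61.8%), against 30.5% of all. The median distance was small, 0.30 above the mean of the other unprimed arrays for rises and 0.17 below it for falls.

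Leaving out this array did not reduce the number of calls. Without unprimed replicate 2 the counts were 1290 rises and 1394 falls, and 969 of the 1086 rises and 1157 of the 1403 falls were among them. Leaving out any other mural array gave 697 to 971 rises and 912 to 1203 falls. In cumulus cells, unprimed replicate 2 also lay farther along the cumulus response than the other unprimed arrays, at 0.21 beside 0.01 and -0.03. The 24 bacterial controls averaged 7.84 on unprimed mural replicate 2 and 7.23 to 7.75 on the other mural arrays. Their part in the place of this array was not tested, and with their mean as a covariate 1041 transcripts rose and 1417 fell.

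**Figure D5:**
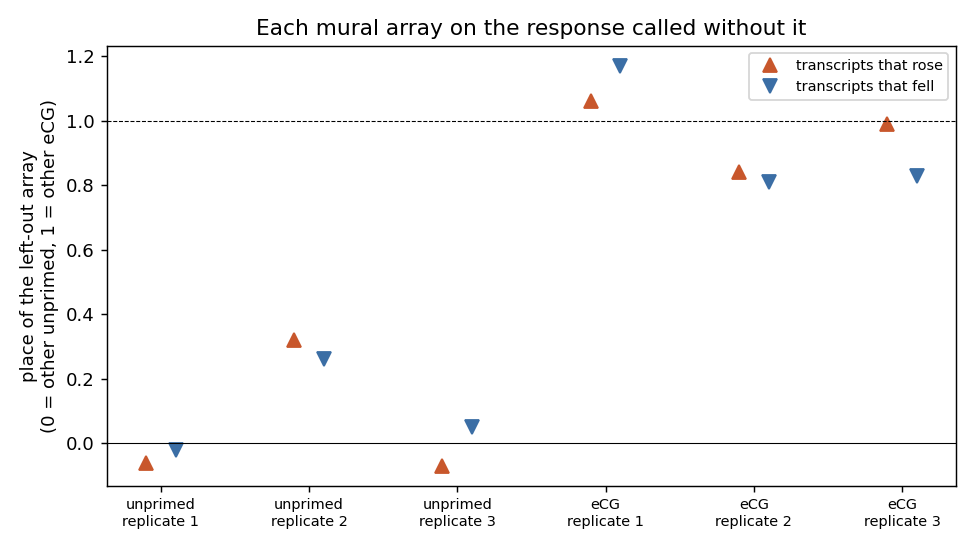
Place of each mural array on the eCG response called without it, over transcripts that rose (upward triangles) and fell (downward triangles), with 0 the mean of the other unprimed and 1 the mean of the other stimulated arrays. Unprimed replicate 2 stands at 0.32 and 0.26, the other unprimed arrays between -0.07 and 0.05, and stimulated arrays between 0.81 and 1.17.

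Among the stimulated arrays, replicate 1 lay at 1.06 for rises and 1.17 for falls, replicate 2 at 0.84 and 0.81, and replicate 3 at 0.99 and 0.83. The median SD over 3 arrays was 0.154 in unprimed and 0.128 in stimulated mural cells, and 10079 of the 16809 transcripts had the larger SD in the unprimed group. The highest SD was 1.52 in the unprimed and 2.41 in the stimulated group. In unprimed and stimulated cumulus cells the median was 0.100 and 0.151. An SD above 0.5 was found in 519 transcripts (3.09%) of the unprimed and 210 (1.25%) of the stimulated mural group. Of the 519, the array standing farthest from the others was replicate 3 in 310 and replicate 2 in 181, and replicate 3 was then mostly the low one (240 of 310). Of the 13 transcripts with an SD above 1 in the stimulated group, which include ENSMUST00000026084, replicate 1 was the low one in 11.

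A measure of RNA quality moved in part with the groups at Gapdh, while its values at beta-actin overlapped. The 3′ minus 5′ difference, averaged over Gapdh and beta-actin, was 1.38, 1.36 and 1.60 on the unprimed and 1.15, 1.44 and 1.17 on the stimulated mural arrays. Stimulated replicates 1 and 3 lay below every unprimed array, and stimulated replicate 2 among them. For Gapdh alone the difference was 2.01, 1.85 and 2.34 on unprimed and 1.48, 2.05 and 1.58 on stimulated arrays. For beta-actin alone it was 0.74, 0.88 and 0.86 on unprimed and 0.81, 0.83 and 0.75 on stimulated arrays. Whether the shift at Gapdh came from RNA quality or from the higher Gapdh readings after eCG was not tested. With that averaged difference as a covariate, a choice made after the data were seen, 703 transcripts rose and 1202 fell, and the 3 Gapdh calls were lost (limma adjusted p = 0.145 for the 3′, 0.107 for the middle and 0.102 for the 5′ probe set). The covariate is made in part from the Gapdh 3′ and 5′ probe sets themselves. The loss of the Gapdh calls therefore follows in part from its make-up, and no conclusion is drawn from it. Among the 24 bacterial controls the count of 0 calls in mural cells came from limma, with 1 at an unadjusted p under 0.05 and a median log2 difference of 0.15.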

How the data were processed

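Total RNA (20 ng per sample) was amplified in successive rounds, per the labels' protocols, which favours 3′ ends. The authors deposited log2 values, for which the submitters' processing notes name RMA and affy. For versions, array model, annotation release and scan batches, the sources used here give none. All value columns belonged to the 12 samples.

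The filter, the counting of identical rows and the choice of transcripts to name were set with earlier results of these data known. One mean per group was fitted over the 12 arrays in limma 3.58.1 (lmFit, eBayes; R 4.3.3), adjusting p-values over the 25917 rows tested. Controls were fitted beside them and adjusted over 25981. The procedure was tested on simulated data. Named are the 2 largest rises and falls past the threshold without overlap between groups. Planned gene lists and cell type markers were not counted, because the RefSeq table (GRCm38.p6) holds 0 Ensembl identifiers, and no sequence is shown. Figures used matplotlib 3.10.9.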

Additional observations from a re-analysis of the deposited data

Results flagged for a closer look

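The response to eCG differed between cumulus and mural cells, by limma's interaction (cumulus minus mural log2 change), in 3 of the named results. ENSMUST00000003659 had -6.02 ± 0.40 (SE, limma adjusted p = 2.1e-05) and ENSMUST00000024916 had -5.21 ± 0.45 (limma adjusted p = 9.5e-05). Both had a called rise in mural cells and none in cumulus cells. They were picked for a large mural rise without overlap between groups, so these interactions follow in part from the choice. ENSMUST00000024916 passed the filter only through its 3 stimulated mural arrays, and its cumulus readings of 4.49 to 5.51 lay below the filter level. The 3′ probe set of pyruvate carboxylase had -0.76 ± 0.17 (adjusted p = 0.0285), with values higher after eCG in mural cells, where the change was not called (adjusted p = 0.0501 by limma), and lower in cumulus cells. This call was lost with the replicate block (0.133), without stimulated mural replicate 1 (0.0803), without unprimed mural replicate 1 (0.0709) and with the bacterial controls as a covariate (0.0899). Groups of 3 arrays are too small for a check of single outlying samples.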

How the results depend on the processing

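The number of transcripts that rose (1086) moved beyond 1.5 times to 2388 with array weights and 587 at a threshold of 0.01. It also moved to 703 with the 3′ minus 5′ covariate and 697 without stimulated mural replicate 1. The number that fell (1403) moved as far to 3109 with array weights and 711 at a threshold of 0.01. It also moved to 912 without stimulated mural replicate 1 and 932 without unprimed mural replicate 1. Array weights gave unprimed mural replicate 1 a weight of 8.61 and replicates 2 and 3 weights of 0.492 and 0.369. Leaving out single mural arrays gave 697 to 1290 rises and 912 to 1394 falls. The counts of changes of at least 2-fold stayed within 1.5 times under every alternative run. The mural changes of the 4 transcripts named by identifier kept their direction and stayed past the threshold in all alternatives run. The interaction of the 5′ Gapdh probe set, -0.11, ranged from -0.29 to 0.04 when single mural arrays were left out. With the 3′ minus 5′ covariate, which is made in part from this probe set, the interaction was 0.07. It was never past the threshold. At the 60th percentile as filter, transcripts crossing the filter level numbered 5 upward and 17 downward, since fewer low rows are tested.

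Replicate numbers are shared between groups, but deviations of same-numbered unprimed and stimulated mural arrays correlated at -0.0913, -0.523 and -0.479, and 0 of 6 arrays correlated best with their own number. With the replicate block, 752 transcripts rose and 944 fell, the interaction of pyruvate carboxylase had an adjusted p of 0.133, and the Gapdh calls were lost.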
